A study of Homo sapiens with 38 samples.

Results

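The comparison described here set human embryonic stem cells kept for 8 days in mTeSR beside the same cells kept for 8 days in N2B27. It was chosen by the sample titles, and it held 4 of the 38 libraries of the series, 2 in mTeSR and 2 in N2B27. The cells were of the Shef6 line, an established human embryonic stem cell line, and all 4 libraries came from naive cells that had been adapted to a serum coating in PXGL, a medium with the MEK inhibitor PD0325901, the tankyrase inhibitor XAV939, the PKC inhibitor Gö6983 and LIF. The study kept its naive Shef6 cells at lowered oxygen, and its description of the later culture does not state the oxygen level. The cells were dissociated and plated on Geltrex, a basement membrane extract. The N2B27 group was plated in N2B27 with a ROCK inhibitor for the first day and then stayed in N2B27 without further supplements. In the mTeSR group N2B27 was replaced by mTeSR, and the study does not say whether this began at plating or after the first day. Coating, cell line and day were shared, and the medium was the described difference between the groups. Other libraries of the same experiment covered naive cells, N2B27, E8 and mTeSR at earlier days and E8 at day 8, and those in mTeSR and N2B27 at days 4 and 6 and in E8 at day 8 are used below for comparison. A single cell line was used, and whether the 2 libraries of a group came from separate wells or only from separate library preparations is not clear from the labels, and the study's own descriptions speak mostly of technical replicates and in one place of biological ones. The p-values therefore measure only the spread between these libraries.

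N2B27 is a serum-free basal medium of DMEM/F12 and Neurobasal with the N2 and B27 supplements, to which no FGF2 or TGFβ ligand was added here. mTeSR and E8 are commercial media that support conventional human pluripotent stem cells and contain FGF2 and a ligand of the TGFβ family. Naive cells correspond to the pluripotent epiblast before implantation, and after the inhibitors are withdrawn they pass over several days to a state from which the germ layers can form, a process called capacitation. FGF signalling through ERK and Activin/Nodal signalling through SMAD2 and SMAD3 sustain the later pluripotent state, whereas BMP and WNT signals drive human pluripotent cells towards amnion, trophectoderm-like cells, mesoderm and endoderm.

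Polyadenylated RNA was measured by 3′ tag sequencing, in which each transcript yields reads near its 3′ end, so that levels are counts that need no length correction. Levels are given as CPM, the counts of a gene per 1e+06 counts of the TMM-scaled library total, and differences are log2 differences fitted with edgeR, mTeSR minus N2B27, each with its standard error (SE). A gene is called where its Benjamini-Hochberg adjusted p-value over all tested genes in the quasi-likelihood test lay under 0.05 and its difference exceeded 1 on the log2 scale, which is a fold above 2. All adjusted p-values below come from that test. The 4 libraries held 3534869 to 5215461 counts, and 3 counts corresponded to 0.542 to 0.84 CPM. That floor covers counting error only, since reads without molecular identifiers are not independent molecules. Each library correlated best with its partner in log2 CPM, with r = 0.979 within mTeSR, 0.982 within N2B27 and 0.961 to 0.965 across the media. Transcripts of the mitochondrial genome held 1.86 to 2.59% of each library, and those for ribosomal proteins held 9.485 to 10.25%. General pluripotency genes were present at high levels in both media, among them POU5F1 (OCT4), at 409 and 414 CPM in mTeSR and 275 and 359 CPM in N2B27, and DPPA4, at 674 and 619 CPM in mTeSR and 603 and 602 CPM in N2B27.

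At day 8, 634 of 16674 tested genes were called, which is 3.8%. Of these, 275 were higher in mTeSR, or 1.65% of the tested genes, and 359 were lower, or 2.15%. These shares are the background for the counts of called genes in each gene list below. The median difference of all tested genes was -0.01 on the log2 scale. The count depended on single libraries, and it was 366 without mTeSR replicate 2 and 421 without N2B27 replicate 1. DESeq2 called 418 genes. Among called genes with a mean of at least 20 CPM in the higher medium, the widest rises in mTeSR included those of the matrix protein THBS2, the neurofilament chain NEFM and the glycolysis regulator PFKFB4. The widest differences in the other direction, under the same limit of 20 CPM, included the YAP target ANKRD1, the trophectoderm and amnion factor GATA3, the early mesoderm receptor APLNR and the 8-cell stage genes TPRX1 and CCNA1. Because the cultures were measured in bulk, fewer cells of a type and less RNA per cell cannot be told apart in any of these differences.

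**Figure D1:**
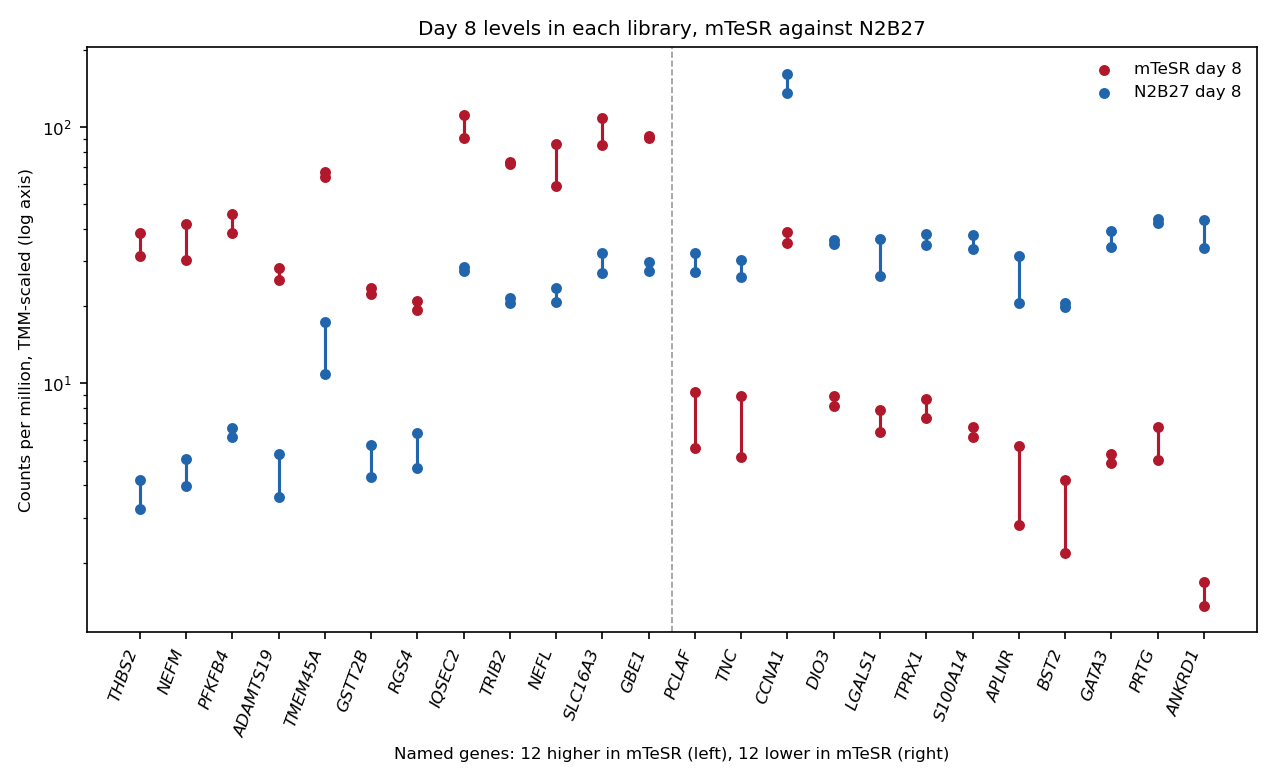
Levels of the 24 named genes in each day 8 library, in TMM-scaled CPM on a log axis, with mTeSR in red and N2B27 in blue. Each point is 1 library and each vertical line joins the 2 libraries of a medium. The points of the 2 media do not overlap for any gene, which the naming rule required, and the gap is widest for ANKRD1, at 1.36 and 1.68 CPM in mTeSR and 43.4 and 33.8 CPM in N2B27.

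The 12 named genes on each side were those with the widest differences among called genes with a mean of at least 20 CPM in the higher medium and no overlap between the libraries. That rule was met by 71 genes higher in mTeSR and 117 genes lower, so the separation of the named genes follows from how they were named. Of the 12 named genes higher in mTeSR, 7 were also called higher at day 6 and 4 at day 4. Of the 12 named genes lower in mTeSR, 6 were called lower at day 6 and 1 at day 4.

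THBS2, which encodes the matrix glycoprotein thrombospondin 2 (chr6:169215780-169254050, minus strand, GRCh38), had the widest rise of the 12 named genes. Its level was 38.5 and 31.3 CPM in mTeSR and 4.19 and 3.25 CPM in N2B27. The difference was 3.24 (SE 0.32, adjusted p = 3.5e-08), or 9.42-fold. It had like size on earlier days, with 3.10 at day 6 and 2.82 at day 4, both called. Naive cells had a mean of 0.0975 CPM of THBS2 over 6 libraries, below either medium at day 8. ADAMTS19, a secreted metalloproteinase of the same matrix-associated class (chr5:129460281-129738683, plus strand), had a like pattern, at 25.2 and 28.3 CPM in mTeSR and 5.29 and 3.61 CPM in N2B27. Its differences were 2.59, 2.53 and 2.56 at days 8, 6 and 4, all called, and its naive mean was 0.0364 CPM.

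NEFM and NEFL, the medium and light chains of the neurofilaments of neurons, were both higher in mTeSR. NEFM was at 30.4 and 42 CPM in mTeSR and 5.07 and 3.97 CPM in N2B27, which is 8.02-fold higher in mTeSR (log2 SE 0.28, adjusted p = 7.5e-09). NEFL was at 58.9 and 85.6 CPM in mTeSR and 20.7 and 23.5 CPM in N2B27, a difference of 1.70. NEFM was called on all 3 days, with 2.40 at day 6 and 2.04 at day 4. NEFM and NEFL were the only called genes of the 25 neural markers listed, of which 14 passed the filter on low counts. The median difference of the 14 was 0.05. The neural transcription factor PAX6 was near the floor in both media, at 1.9 and 2.24 CPM in mTeSR and 1.98 and 1.99 CPM in N2B27, and SOX1 and PAX3 did not pass the filter. TUBB3, a neuronal tubulin, stood at 177 and 158 CPM in mTeSR and 167 and 147 CPM in N2B27, and these ranges overlapped.

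Other named genes higher in mTeSR were regulators of signalling. RGS4, which shortens the activity of G proteins, was at 20.9 and 19.3 CPM in mTeSR and 6.39 and 4.7 CPM in N2B27 (difference 1.87). IQSEC2, an exchange factor for ARF GTPases, was at 90.9 and 111 CPM in mTeSR and 27.3 and 28.4 CPM in N2B27 (1.86). TRIB2, a pseudokinase that directs proteins to degradation, was at 73 and 71.9 CPM in mTeSR and 21.6 and 20.6 CPM in N2B27 (1.78). The libraries of each medium lay close together for IQSEC2 and TRIB2, and the TRIB2 difference was already called at day 6, at 1.40. GSTT2B, a glutathione transferase, was at 23.6 and 22.4 CPM in mTeSR and 5.73 and 4.34 CPM in N2B27, with a difference of 2.20 and calls on all 3 days. GSTT2B has a near-identical neighbour, GSTT2, and the share of reads that belongs to each is uncertain.

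The remaining named genes higher in mTeSR were PFKFB4, SLC16A3, GBE1 and TMEM45A, of which PFKFB4 was on the list of hypoxia and glucose responsive genes. Cells that meet low oxygen raise enzymes of glycolysis, lactate export and glycogen storage through the transcription factor HIF1. PFKFB4, the bifunctional enzyme that sets fructose 2,6-bisphosphate and through it the rate of glycolysis (chr3:48517684-48562015, minus strand), was at 38.5 and 45.9 CPM in mTeSR and 6.17 and 6.68 CPM in N2B27. The difference was 2.71 (SE 0.29, adjusted p = 1.3e-07), or 6.53-fold. SLC16A3, the lactate exporter MCT4 (chr17:82217934-82261129, plus strand), was at 84.7 and 108 CPM in mTeSR and 26.9 and 32.3 CPM in N2B27, a difference of 1.70 (SE 0.22, adjusted p = 3.5e-06). GBE1, the glycogen branching enzyme (chr3:81489703-81761645, minus strand), was at 92.6 and 90.4 CPM in mTeSR and 27.3 and 29.6 CPM in N2B27, a difference of 1.68 (SE 0.18, adjusted p = 7.7e-08). In all 3 genes the lower mTeSR library was more than 2 times the higher N2B27 library. A separation of the libraries was required by the naming rule. TMEM45A, which encodes a membrane protein, was at 63.8 and 66.9 CPM in mTeSR and 17.4 and 10.8 CPM in N2B27 (2.22).

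Of the 20 listed hypoxia and glucose responsive genes 19 passed the filter. Of the 19, 3 were called higher in mTeSR and none was called lower, beside 1.65% and 2.15% of all tested genes. The median was 0.50, beside -0.01 for all tested genes. In total counts, the listed genes summed to 6004 and 6092 CPM in the mTeSR libraries and 4337 and 4091 CPM in the N2B27 libraries. The 3 called genes were PFKFB4, NDRG1, a stress-responsive gene at 76.6 and 107 CPM in mTeSR and 33.9 and 40.6 CPM in N2B27 (difference 1.29), and BNIP3, a receptor for the removal of mitochondria at 937 and 901 CPM in mTeSR and 460.0 and 430.1 CPM in N2B27 (1.05, SE 0.12, adjusted p = 7.2e-07). BNIP3 lay at the threshold, and its difference was 0.99 with plain library totals and just under 1 without N2B27 replicate 2. A further group had a small adjusted p but a difference under 1. LDHA, the lactate dehydrogenase of glycolytic cells, was at 1467 and 1424 CPM in mTeSR and 768 and 723 CPM in N2B27, a difference of 0.96 (adjusted p = 2.5e-04), and ALDOC, a glycolytic aldolase, was at 52.7 and 50.6 CPM in mTeSR and 28.2 and 27.1 CPM in N2B27, a difference of 0.90 (adjusted p = 9.7e-04). Some members differed little. The growth factor gene VEGFA stood at 76.8 and 89.5 CPM in mTeSR and 70.3 and 91.8 CPM in N2B27, with overlapping libraries, and the glucose transporter gene SLC2A3 at 1661 and 1734 CPM in mTeSR and 1604 and 1455 CPM in N2B27, a difference of 0.15. TXNIP, whose product restrains glucose uptake, had a difference of -0.44. GYS1, PLOD2 and EGLN1 are not on this list. They were named after their values were seen, so they are described only and add nothing to the counts of the list. GYS1, the glycogen synthase that works with GBE1, was at 73.6 and 89.8 CPM in mTeSR and 30.6 and 34.7 CPM in N2B27 (1.32). PLOD2, a collagen lysyl hydroxylase, was at 112 and 108 CPM in mTeSR and 35 and 38.5 CPM in N2B27 (1.58), and EGLN1, an oxygen-sensing hydroxylase that targets HIF1 for degradation, was at 32.8 and 49.3 CPM in mTeSR and 17 and 17.3 CPM in N2B27 (1.26).

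**Figure D2:**
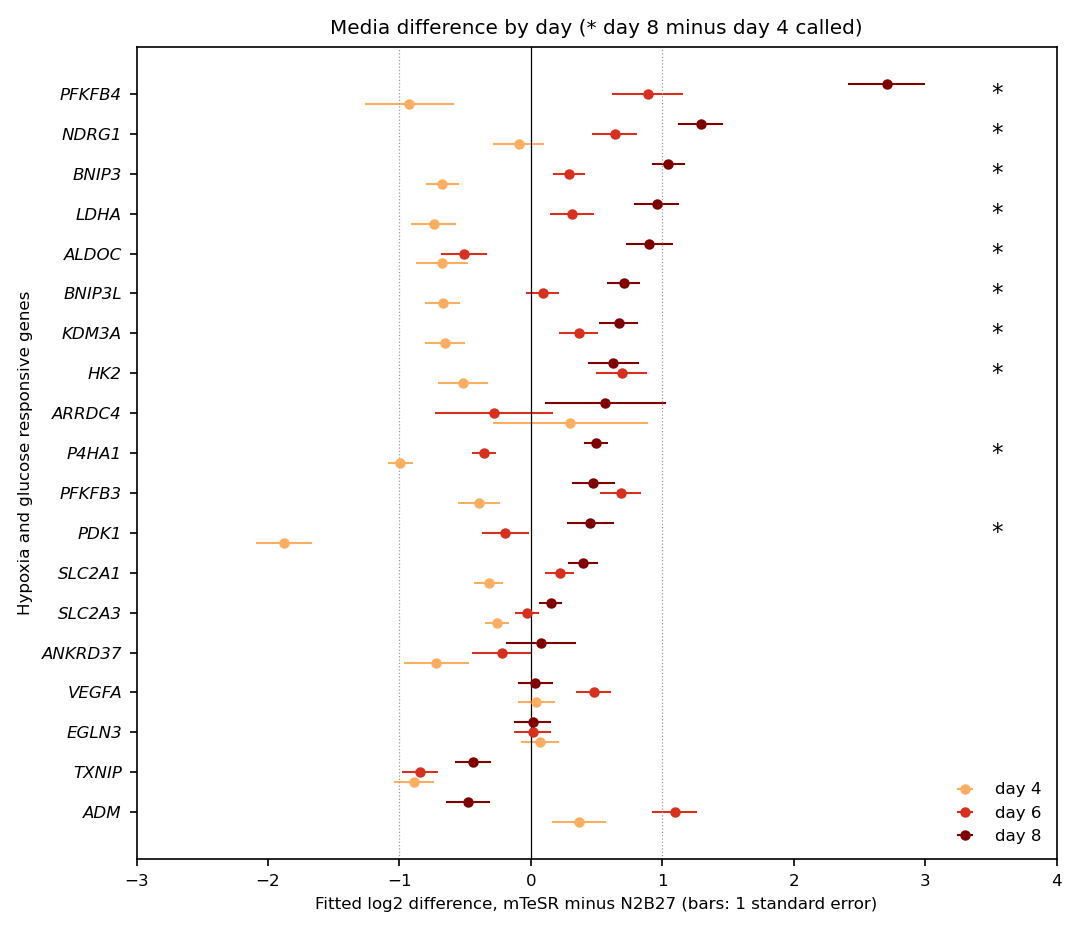
Fitted log2 difference, mTeSR minus N2B27, of the 19 tested hypoxia and glucose responsive genes at day 4, day 6 and day 8, with bars of 1 standard error. A star marks the 10 genes whose day 8 difference minus day 4 difference was called. The day 4 points lie mostly left of 0 with a median of -0.65 and the day 8 points mostly right of 0 with a median of 0.50.

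The median media difference of this list changed sign between day 4 and day 8. At day 4 it was -0.65, at day 6 it was 0.22 and at day 8 it was 0.50, beside medians of all tested genes of 0.00, -0.01 and -0.01 on these days. The day 8 difference minus the day 4 difference was tested as an interaction in the same fit, in which 281 of all tested genes, or 1.69%, were called. Of the 19 listed genes, 10 were called, each in the positive direction. PFKFB4 went from -0.92 at day 4 to 2.71 at day 8, an interaction of 3.63 (SE 0.45, adjusted p = 3.5e-06). PDK1, the kinase that keeps pyruvate out of mitochondria, went from -1.88, called lower in mTeSR at day 4, to 0.45, not called at day 8, an interaction of 2.33 (adjusted p = 2.2e-06). LDHA went from -0.74 to 0.96 (interaction 1.69) and P4HA1, a collagen prolyl hydroxylase, from -0.99 to 0.50 (interaction 1.49). SLC16A3, which was not on the list, went from -1.45 to 1.70, called in opposite directions on these days, with an interaction of 3.15 (adjusted p = 7.2e-07). In levels, SLC16A3 stood at 30.3 ± 3.7 CPM at day 4 and 29.6 ± 3.86 CPM at day 8 in N2B27, and at 11 ± 2.63 CPM at day 4 and 96.5 ± 16.7 CPM at day 8 in mTeSR (mean ± SD, n = 2).

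The upstream sequences of 2 of these genes are shown because the hypoxia response element, the site that HIF1 binds, has a short core whose letters can be read in them. The 250 bases before the RefSeq start of each gene (GRCh38.p14) are written 5′ to 3′ on the gene's strand, and capitals mark ACGTG or its reverse complement CACGT. The 6 letters CACGTG hold both in overlap. The GBE1 window is chr3:81761646-81761895 on the minus strand and holds 1 match, and the LDHA window is chr11:18394313-18394562 on the plus strand and holds 3 marked stretches.
GBE1: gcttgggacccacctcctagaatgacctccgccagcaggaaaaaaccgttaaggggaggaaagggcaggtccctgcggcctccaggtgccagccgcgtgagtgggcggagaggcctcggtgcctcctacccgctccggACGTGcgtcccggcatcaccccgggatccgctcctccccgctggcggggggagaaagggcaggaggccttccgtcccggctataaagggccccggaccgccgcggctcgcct
LDHA: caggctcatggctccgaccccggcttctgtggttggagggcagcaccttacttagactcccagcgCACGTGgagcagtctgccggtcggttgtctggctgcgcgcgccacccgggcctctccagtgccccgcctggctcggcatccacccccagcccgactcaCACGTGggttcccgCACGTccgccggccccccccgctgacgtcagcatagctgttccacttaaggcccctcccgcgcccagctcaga
Of the 16 listed hypoxia and glucose responsive genes with a promoter in the table, 8 (50%) held ACGTG or CACGT in this window, as did 18.7% of all 27305 promoters and 23.1% of those of tested genes. These letters were present in 2 of 9 named genes higher in mTeSR (22.2%), in 1 of 9 named genes lower in mTeSR (11.1%) and in 4 of 16 YAP/TEAD targets (25%). Neither PFKFB4 nor SLC16A3 held these letters in this window. A match is a string of letters and not a shown binding site. These letters were chosen after the values of the genes were seen.

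Of the 12 named genes lower in mTeSR, ANKRD1 had the widest difference. ANKRD1, an ankyrin repeat cofactor and a widely used target gene of YAP and its DNA-binding partners of the TEAD family (chr10:90912096-90921087, minus strand), was at 1.36 and 1.68 CPM in mTeSR and 43.4 and 33.8 CPM in N2B27. The mTeSR libraries held 5 and 6 reads of it and the N2B27 libraries 197 and 187. The difference was -4.64 (SE 0.38, adjusted p = 2.5e-09), which is 25-fold lower in mTeSR. This difference arose late, with -1.09 at day 6 and -0.18 at day 4, neither called, and the interaction was -4.46 (adjusted p = 2.0e-05). ANKRD1 was at 3.08 ± 0.643 CPM in E8 at day 8 (mean ± SD, n = 2), so the N2B27 level was the high one of the 3 media.

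The rest of the YAP/TEAD list moved much less. Of 22 listed genes 20 passed the filter, 4 were called lower in mTeSR, none was called higher, and the median was -0.29. Beside ANKRD1 these were MYOF, a membrane repair protein, at 5.43 and 5.32 CPM in mTeSR and 9.91 and 15.9 CPM in N2B27 (-1.27), RBMS3, an RNA-binding protein, at 4.62 and 6.16 CPM in mTeSR and 11.2 and 11 CPM in N2B27 (-1.04), and FOXF2, a mesenchymal transcription factor, at 0.271 and 0.28 CPM in mTeSR and 3.3 and 3.61 CPM in N2B27. FOXF2 had 1 read in each mTeSR library, and against the floor of 3 counts it was at least 4.18-fold lower. FOXF2 and RBMS3 were not called once any 1 of the 4 libraries was left out, with adjusted p up to 0.15 and 0.25, nor was MYOF without either mTeSR library or N2B27 replicate 2, with adjusted p up to 0.22. ANKRD1 was called in each case. CCN1 and CCN2 (CYR61 and CTGF under their older symbols), the most used YAP targets, were abundant and not called. CCN1 was at 164 and 170.4 CPM in mTeSR and 188 and 209 CPM in N2B27, a difference of -0.25 (adjusted p = 0.26), and CCN2 was at 108 and 131 CPM in mTeSR and 111 and 155 CPM in N2B27, with overlapping libraries. Of 20 actin and SRF target genes, 19 passed the filter and 2 were called lower, ACTG2 at 10.0 and 7.0 CPM in mTeSR and 20.5 and 22.9 CPM in N2B27 (-1.35) and MYL9 at 10.6 and 7.84 CPM in mTeSR and 20.5 and 18.1 CPM in N2B27 (-1.06), with a median of -0.35. MYL9 was not called without mTeSR replicate 2 or N2B27 replicate 1, with adjusted p up to 0.092.

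The upstream sequences of ANKRD1 and GATA3, both among the 12 named genes lower in mTeSR, are shown with the letters GGAATG or CATTCC, the core that TEAD factors bind, in capitals. The windows are the 250 bases before the RefSeq start (GRCh38.p14), chr10:90921088-90921337 on the minus strand for ANKRD1 and chr10:8045083-8045332 on the plus strand for GATA3, each written 5′ to 3′ on the gene's strand.
ANKRD1: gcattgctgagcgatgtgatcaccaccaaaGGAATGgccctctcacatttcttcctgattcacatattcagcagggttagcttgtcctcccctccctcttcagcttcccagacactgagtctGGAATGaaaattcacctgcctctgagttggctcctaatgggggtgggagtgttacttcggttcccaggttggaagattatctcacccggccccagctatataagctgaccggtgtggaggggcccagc
GATA3: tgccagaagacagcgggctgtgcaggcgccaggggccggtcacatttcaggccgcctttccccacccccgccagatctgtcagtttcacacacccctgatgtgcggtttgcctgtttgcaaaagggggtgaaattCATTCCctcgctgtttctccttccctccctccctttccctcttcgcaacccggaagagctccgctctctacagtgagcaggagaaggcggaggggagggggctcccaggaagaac
The ANKRD1 window held 2 matches, which began 220 and 128 bases before the start, and the GATA3 window held 1, which began 115 bases before it. Matches were present in 11.9% of all 27305 promoters and 9.24% of those of tested genes, in 6 of 16 YAP/TEAD targets with a promoter in the table, in 3 of 9 named genes higher in mTeSR, in 2 of 9 named genes lower in mTeSR and in 0 of 16 hypoxia and glucose responsive genes.

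GATA3 and some other genes of the BMP response were lower in mTeSR. BMP ligands act through SMAD1 and SMAD5 to switch on ID genes, MSX genes and GATA3, and in human pluripotent cells they induce amnion and trophoblast. GATA3, a transcription factor of trophectoderm and amnion (chr10:8045378-8075198, plus strand), was at 4.89 and 5.32 CPM in mTeSR and 39.4 and 34 CPM in N2B27, a difference of -2.84 (SE 0.28, adjusted p = 2.1e-08). Of 20 BMP pathway genes 19 passed the filter. Of these, 7 were called lower in mTeSR and none higher, beside 2.15% and 1.65% of all tested genes. The list had a median of -0.78, or -0.74 with genes near the floor taken at their bound. The ligand gene BMP2 was at 12.2 and 14.8 CPM in mTeSR and 48.9 and 39.6 CPM in N2B27 (-1.71), and the second ligand gene BMP4 was at 103 and 87.3 CPM in mTeSR and 172 and 156 CPM in N2B27, a difference of -0.78 (adjusted p = 1.2e-04) that did not exceed 1. BMP7 had the opposite sign, at 38.8 and 39.5 CPM in mTeSR and 23.6 and 21.9 CPM in N2B27 (0.79).

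The called BMP targets were transcriptional regulators and a decoy receptor. ID2, an inhibitor of helix-loop-helix factors, was at 53.8 and 46.5 CPM in mTeSR and 150.5 and 104 CPM in N2B27, a difference of -1.34 (SE 0.16, adjusted p = 7.6e-07). MSX1 and MSX2, homeobox factors, had differences of -1.95 and -1.51, with MSX2 at 13.6 and 13.2 CPM in mTeSR and 42.5 and 33.8 CPM in N2B27. BAMBI, a decoy receptor that dampens BMP signals, was at 17.1 and 17.3 CPM in mTeSR and 38.3 and 33.2 CPM in N2B27 (-1.05), and HAND1, a factor of trophoblast, amnion and extraembryonic mesoderm, was at 3.8 and 2.24 CPM in mTeSR and 20.3 and 15.4 CPM in N2B27 (-2.54). Without N2B27 replicate 1 the BAMBI difference was -0.95, short of the threshold. No library of mTeSR reached the N2B27 range for any of these genes. The related gene ID1 stood at 122 and 111 CPM in mTeSR and 137 and 148 CPM in N2B27, and ID3 at 111 and 102 CPM in mTeSR and 169 and 154 CPM in N2B27 (-0.59, adjusted p = 0.0053). The listed genes SMAD6, SMAD7 and SMAD9 had differences of 0.07, -0.32 and 0.09, and none of them was called. The list as a whole differed little on earlier days, with medians of 0.02 at day 4 and -0.06 at day 6, and 5 of its members had a called interaction, each negative. Among these ID2 went from 0.40 at day 4 to -1.34 at day 8 (interaction -1.74) and GATA3 from -0.33 to -2.84 (interaction -2.51, adjusted p = 4.9e-05).

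Markers of 4 lineages that human pluripotent cells can enter were lower in mTeSR where they were called. Of 65 distinct genes listed for trophectoderm, amnion, primitive streak or mesoderm, and endoderm or hypoblast, 54 passed the filter, 17 were called lower and none was called higher. Over all tested genes 2.15% were called lower and 1.65% higher. The median of the 54 was -0.83. These lists were chosen with earlier results of these data known. GATA3, HAND1 and BAMBI are also on the BMP list, so the lineage counts are not separate from the BMP counts. Except for LHX1, the called genes had means under 50 CPM in N2B27, below those of POU5F1 and NANOG, and 11 of the 65, among them AFP, TTR, KRT7, TBX6 and MESP1, did not pass the filter. Their summed level ran from 1029 to 1061 CPM in mTeSR and from 1160 to 1275 CPM in N2B27 for trophectoderm, from 142 to 156 CPM and from 247 to 270.1 CPM for amnion, from 392 to 448 CPM and from 640.0 to 792 CPM for primitive streak and mesoderm, and from 259 to 262 CPM and from 427 to 501 CPM for endoderm and hypoblast.

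In the trophectoderm list 5 of 14 tested genes were called lower, with a median of -0.82. CDX2, a homeobox factor of trophectoderm and later of posterior mesoderm, was at 2.71 and 2.52 CPM in mTeSR and 20.9 and 13 CPM in N2B27 (-2.68, adjusted p = 1.1e-04). GATA2, HAND1 and NR2F2 were also called, and GATA2 was low throughout, at 2.44 and 1.68 CPM in mTeSR and 5.29 and 7.41 CPM in N2B27. Its call was lost when any 1 of the 4 libraries was left out, with adjusted p up to 0.27, and that of NR2F2 was lost without mTeSR replicate 2 or N2B27 replicate 2, with adjusted p up to 0.088. Without mTeSR replicate 2, 3 genes of the list were called. KRT8, an epithelial keratin, was at 113 and 118 CPM in mTeSR and 187 and 205 CPM in N2B27, a difference of -0.76 (adjusted p = 5.8e-04). TFAP2C, a factor shared with naive cells, stood higher in mTeSR without a call, at 404 and 455 CPM in mTeSR and 343 and 283 CPM in N2B27 (0.46). The placental hormone gene CGA had at most 1 read in each library. The amnion list had 2 called genes of 10 tested, BAMBI and TNC, an extracellular matrix protein at 5.16 and 8.95 CPM in mTeSR and 26 and 30.3 CPM in N2B27 (-2.00), and the amnion markers ISL1, at 4.89 and 1.4 CPM in mTeSR and 6.39 and 5.24 CPM in N2B27, and GABRP, at 1.09 and 0.56 CPM in mTeSR and 2.86 and 1.45 CPM in N2B27, were low in both media. Of the 10 tested members 6 had a negative and 4 a positive difference, and those with a positive one, none of them called, included IGFBP3, a binding protein of insulin-like growth factors, at 4.07 and 4.76 CPM in mTeSR and 3.75 and 1.99 CPM in N2B27 (0.65, adjusted p = 0.36), and POSTN, a matrix protein with 8 and 6 reads in mTeSR and 0 and 3 reads in N2B27 (adjusted p = 0.092).

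In the primitive streak and mesoderm list 6 of 16 tested genes were called lower, and the median was -0.83. APLNR, the apelin receptor of early mesoderm (chr11:57233577-57237250, minus strand), was at 5.7 and 2.8 CPM in mTeSR and 31.5 and 20.6 CPM in N2B27, a difference of -2.60 (SE 0.37, adjusted p = 1.0e-05). LHX1, a homeobox factor of axial mesoderm and of the anterior streak, was at 42.9 and 56.5 CPM in mTeSR and 151 and 118 CPM in N2B27 (-1.43). FOXC1, SNAI2, HAND1 and PDGFRA were the other called genes, with SNAI2, a repressor of epithelial genes, at 0.271 and 1.12 CPM in mTeSR and 9.47 and 7.41 CPM in N2B27. SNAI2 was not called without mTeSR replicate 1 (adjusted p = 0.06), and PDGFRA was not called without mTeSR replicate 2 or N2B27 replicate 1 (adjusted p up to 0.098). The streak genes TBXT and EOMES differed by less than 2-fold, TBXT at 42.1 and 28.5 CPM in mTeSR and 65.7 and 60.3 CPM in N2B27 (-0.83, adjusted p = 0.0069) and EOMES at 41.3 and 31.9 CPM in mTeSR and 74.5 and 56.4 CPM in N2B27 (-0.83, adjusted p = 0.018). MIXL1 had overlapping libraries, at 109 and 85.9 CPM in mTeSR and 145 and 100.1 CPM in N2B27. TBXT, EOMES and MIXL1 had wider differences at day 4, at -1.87, -1.67 and -1.89, all called.

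In the endoderm and hypoblast list 5 of 16 tested genes were called lower, and the median was -0.94. GATA6, a factor of hypoblast and endoderm, was at 8.69 and 10.4 CPM in mTeSR and 31.3 and 32.2 CPM in N2B27 (-1.73, SE 0.26, adjusted p = 3.0e-05). APOA1, an apolipoprotein made by visceral endoderm, was at 0.271 and 1.68 CPM in mTeSR and 21.6 and 17.5 CPM in N2B27. Its relative APOA2 had 2 reads in each mTeSR library against 34 and 32 in N2B27, at least 8.02-fold lower against the floor. RSPO3, an amplifier of WNT signals, was at 1.09 and 0.84 CPM in mTeSR and 15.4 and 9.39 CPM in N2B27. CST1 was at 8.14 and 10.4 CPM in mTeSR and 33 and 33.6 CPM in N2B27, and its reads are hard to separate from those of its near copy CST4, which was called lower as well. APOA2 was not called without mTeSR replicate 2 (adjusted p = 0.051), nor CST1 without mTeSR replicate 1 or N2B27 replicate 2 (adjusted p up to 0.14 over the alternatives, DESeq2 included). With DESeq2 1 gene of this list was called, and 4 members had no adjusted p there. SOX17, the endoderm factor, was at 35.8 and 35.3 CPM in mTeSR and 58.4 and 63 CPM in N2B27, a difference of -0.77 (adjusted p = 0.018), and FOXA2 was at 22 and 20.1 CPM in mTeSR and 43.6 and 28.2 CPM in N2B27 (-0.76, adjusted p = 0.086).

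**Figure D3:**
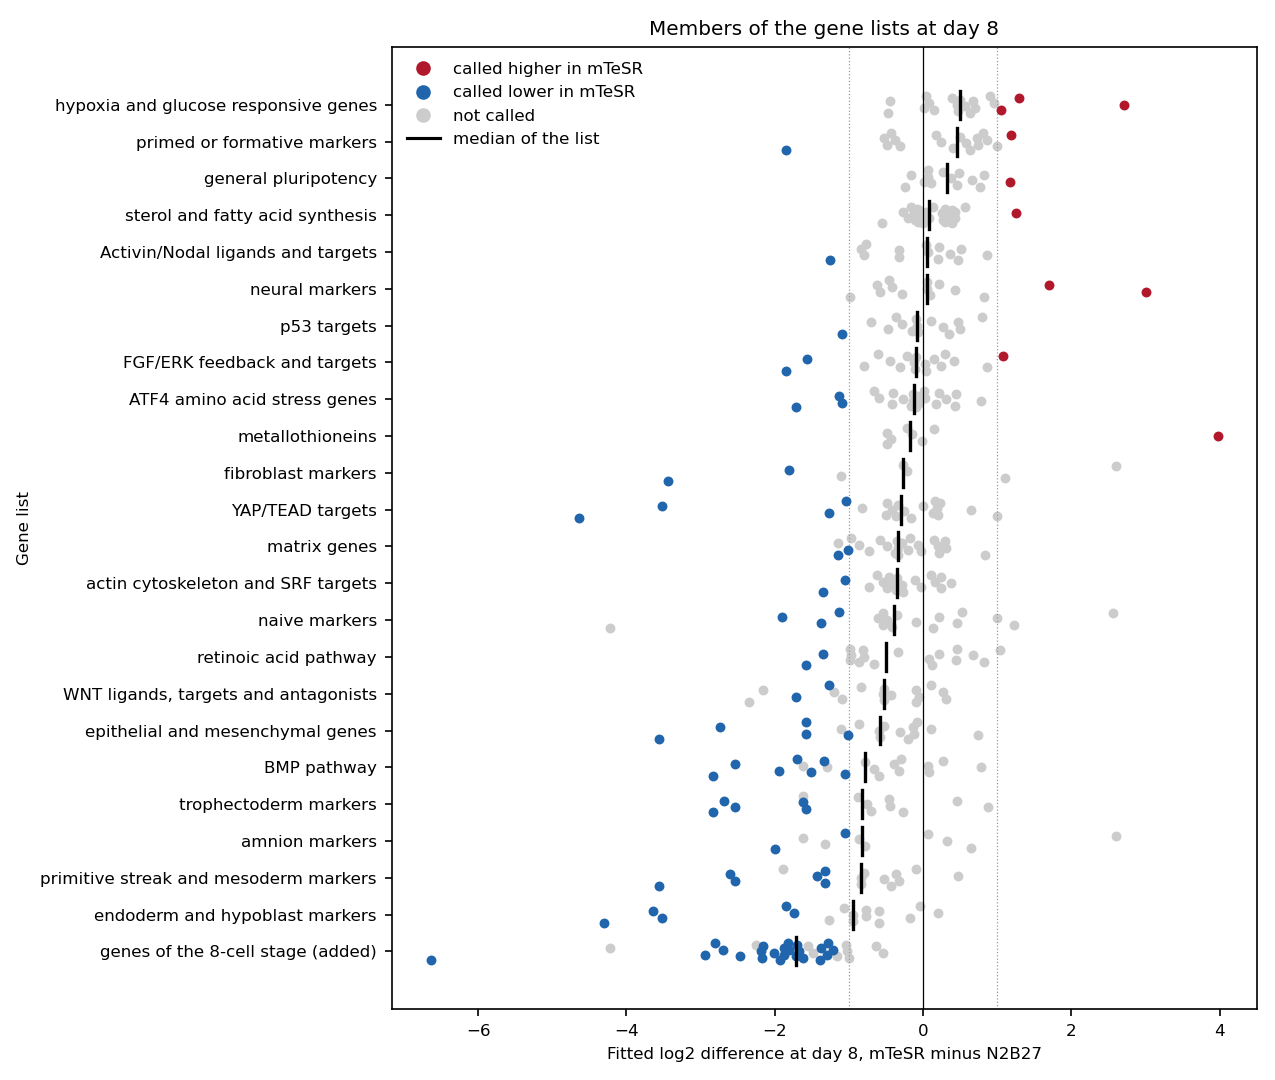
Fitted log2 difference at day 8, mTeSR minus N2B27, of each tested member of the 24 gene lists, with called members in red (higher in mTeSR) or blue (lower) and the median of each list as a black bar. Dotted lines mark a difference of 1. The list of 8-cell stage genes, added after values were seen, has the lowest median at -1.71, and the hypoxia and glucose list has the highest at 0.50.

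The same mTeSR libraries were compared with E8 at day 8, where 885 of the tested genes, or 5.31%, were called, 431 without E8 replicate 1 and 472 without mTeSR replicate 2. The comparisons with N2B27 and with E8 share these mTeSR libraries, so their values are set side by side and not counted together. Of the 54 tested markers of the 4 lineages, 20 were called higher in mTeSR than in E8 and 5 lower, against 0 and 17 relative to N2B27. In each of the streak and mesoderm list and the endoderm and hypoblast list, 9 of 16 genes were called higher than in E8 and 0 lower, with medians of 1.76 and 1.91. APLNR, with a difference of -2.60 from N2B27, was called higher than in E8 (adjusted p = 8.0e-04), where its mean of 0.399 ± 0.231 CPM lay under the floor of 3 counts, so no fold is given. LHX1 differed by -1.43 from N2B27 and by 2.24 from E8. The differences of MIXL1 and SOX17 from N2B27, -0.33 and -0.77, were not called, and those from E8 were 2.94 and 2.66. GATA3 lay below both other media, by -2.84 from N2B27 and -1.28 from E8, with 12.6 ± 3.2 CPM in E8 (mean ± SD, n = 2). PFKFB4, SLC16A3 and GBE1 lay above both, PFKFB4 by 2.71 and 2.83, SLC16A3 by 1.70 and 2.02, and GBE1 by 1.68 and 1.31. For NEFM the difference from E8, 0.92, was not called, and IQSEC2 stood at 116 ± 32.2 CPM in E8, a difference of -0.20.

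**Figure D4:**
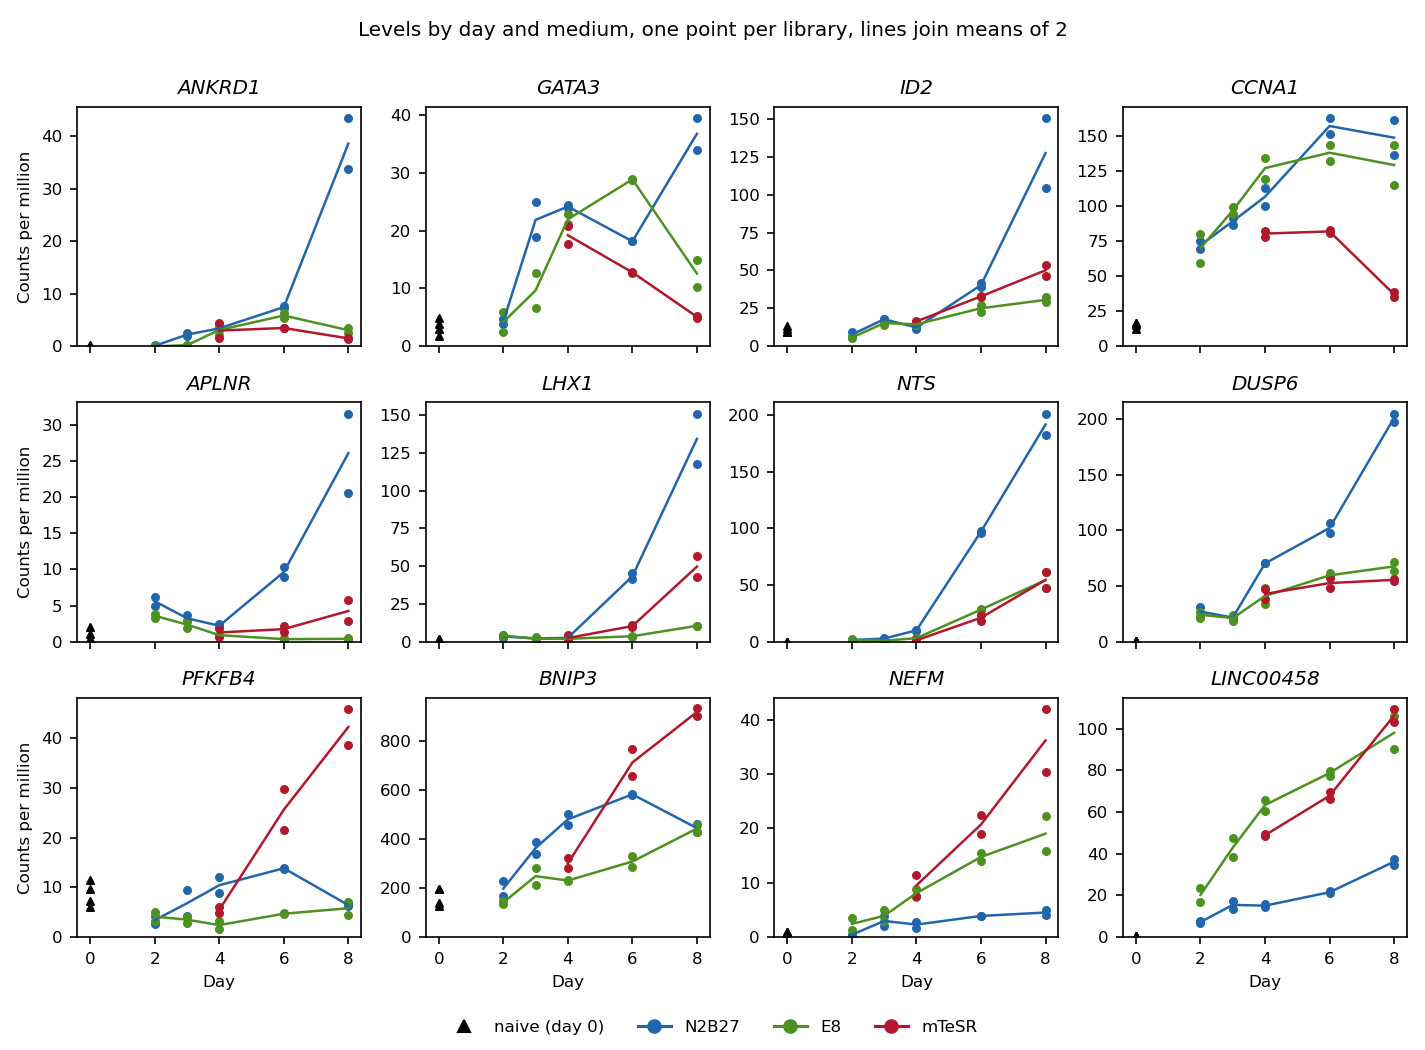
Levels of 12 genes by day in CPM, with 1 point per library of the same experiment, lines joining the means of 2, and triangles for the 4 naive libraries of that experiment at day 0. N2B27 is blue, E8 green and mTeSR red. ANKRD1 in N2B27 leaves the other curves at day 8, PFKFB4 in mTeSR lies above them at days 6 and 8, and LINC00458 is higher in mTeSR than in N2B27 on each of days 4, 6 and 8.

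Signalling genes of the FGF and Activin pathways, whose ligands mTeSR supplies, did not move together. Of 18 FGF/ERK feedback and target genes 1 was called higher and 2 lower, with a median of -0.10. Over all tested genes 1.65% were called higher and 2.15% lower. DUSP6, the phosphatase that limits ERK activity (chr12:89347235-89352501, minus strand), was at 54.6 and 56.5 CPM in mTeSR and 205 and 197 CPM in N2B27, a difference of -1.85 (SE 0.16, adjusted p = 1.7e-09). EGR1, an immediate early gene, was at 5.43 and 7.0 CPM in mTeSR and 20.5 and 16.6 CPM in N2B27 (-1.57). ETV1, an ETS factor, was at 91.8 and 98.5 CPM in mTeSR and 40.1 and 49.7 CPM in N2B27 (1.08), and ETV4 at 69 and 72.5 CPM in mTeSR and 36.8 and 40.5 CPM in N2B27 (0.87, adjusted p = 0.002). The feedback inhibitor SPRY4 stood at 31.2 and 33.3 CPM in mTeSR and 35.7 and 33.8 CPM in N2B27 and SPRY2 at 62.4 and 70.5 CPM in mTeSR and 75.3 and 69.9 CPM in N2B27, with differences of -0.11 and -0.13. Without N2B27 replicate 1 the ETV1 difference was 0.94, short of the threshold. DUSP6 lay below its N2B27 level while ETV1 lay above it.

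The 14 Activin/Nodal ligands and targets had a median difference of 0.05. LEFTY2, a secreted antagonist of Nodal (chr1:225936598-225941383, minus strand), stood at 51 and 50.9 CPM in mTeSR and 30.8 and 25.3 CPM in N2B27, a difference of 0.87 (adjusted p = 0.019). At day 4 the same gene had been far lower in mTeSR, at 4.06 ± 2.08 CPM against 55.9 ± 4.8 CPM in N2B27 (mean ± SD, n = 2), a difference of -3.77, and the interaction was 4.64 (SE 0.42, adjusted p = 1.7e-08). Its neighbour LEFTY1 went from -1.63 to 0.04 (interaction 1.67). LEFTY1 and LEFTY2 are close copies, and how reads were divided between them is uncertain. The ligand gene NODAL stood at 175 and 156 CPM in mTeSR and 148 and 137 CPM in N2B27, with a difference of 0.22. VIM, an intermediate filament protein gained on leaving the naive state, also lost its difference, from 2.42 at day 4 to -0.31 at day 8 (interaction -2.73).

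In the WNT list 2 of 17 tested genes were called lower, beside 2.15% of all tested genes, and the median was -0.53. WNT5A, a ligand of the non-canonical branch, was at 12.8 and 12.3 CPM in mTeSR and 42.5 and 39.7 CPM in N2B27 (-1.71), and SFRP1, a secreted WNT antagonist, was at 28 and 28.8 CPM in mTeSR and 74.9 and 62.1 CPM in N2B27 (-1.27). AXIN2, a general target of β-catenin, stood at 51.6 and 53.2 CPM in mTeSR and 42.1 and 54.4 CPM in N2B27, with overlapping libraries. In the retinoic acid list 2 of 18 were called lower, CYP26A1, the enzyme that degrades retinoic acid, at 42.4 and 49 CPM in mTeSR and 107 and 125 CPM in N2B27 (-1.35), and NR2F2, at 3.53 and 3.08 CPM in mTeSR and 9.03 and 10.8 CPM in N2B27, the call that rested on single libraries. The list had a median of -0.50, or -0.20 with genes near the floor taken at their bound.

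Of 14 general pluripotency genes 1 was called, and the median was 0.32. The called gene was PRDM14, a transcriptional repressor of the pluripotency network, at 16 and 20.4 CPM in mTeSR and 6.39 and 9.57 CPM in N2B27 (1.17, adjusted p = 0.0035). PRDM14 was not called without mTeSR replicate 2 or N2B27 replicate 1, with adjusted p up to 0.085. SOX2 was at 385 and 356 CPM in mTeSR and 209 and 226 CPM in N2B27, a difference of 0.77 (adjusted p = 2.6e-05), and NANOG was at 998 and 1094 CPM in mTeSR and 802 and 721 CPM in N2B27, a difference of 0.46 (adjusted p = 0.0037). TERF1, a telomere protein abundant in pluripotent cells, was at 1247 and 1202 CPM in mTeSR and 731 and 648 CPM in N2B27 (0.83, adjusted p = 1.4e-07). The 2 libraries of POU5F1 varied more within N2B27, and its difference of 0.37 had an adjusted p of 0.48.

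Of 18 tested primed or formative markers, 1 was called higher and 1 lower, with a median of 0.46. The gene called higher was SFRP2, a secreted WNT modulator, at 43.4 and 58.2 CPM in mTeSR and 22 and 22.6 CPM in N2B27 (1.19), and the gene called lower was DUSP6. The SFRP2 difference was 0.96 without mTeSR replicate 2, short of the threshold. DNMT3B, the de novo DNA methyltransferase of the later state, was at 938 and 1039 CPM in mTeSR and 563 and 620.5 CPM in N2B27 (0.74, adjusted p = 6.4e-06), and CD24, a surface protein of primed cells, at 874 and 847 CPM in mTeSR and 510.0 and 471 CPM in N2B27 (0.81, adjusted p = 2.0e-06). CDH2, N-cadherin, had the other sign, at 124 and 112 CPM in mTeSR and 192 and 146 CPM in N2B27 (-0.52, adjusted p = 0.014). The long noncoding RNA LINC00458 (chr13:53950255-54270397, minus strand) and the transcript HPAT5, both named after their values were seen, are associated with conventional pluripotent cells and were called higher on all 3 days. LINC00458 was at 109 and 103 CPM in mTeSR and 37.7 and 34.7 CPM in N2B27, with differences of 1.56, 1.65 and 1.70 at days 8, 6 and 4. HPAT5 was at 116 and 117 CPM in mTeSR and 33.5 and 41.2 CPM in N2B27, with 1.64, 1.39 and 1.41.

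Of 18 naive markers, 3 were called lower in mTeSR and none higher, with a median of -0.39, or -0.23 with genes near the floor taken at their bound. ALPG, a placental-type alkaline phosphatase, was at 16.6 and 21 CPM in mTeSR and 61.9 and 78.2 CPM in N2B27 (-1.90, adjusted p = 2.5e-08), against a naive mean of 390.0 CPM. KHDC1L and SUSD2, a surface marker of naive cells, were the others, SUSD2 at 15.5 and 18.5 CPM in mTeSR and 29.3 and 44.3 CPM in N2B27 (-1.13) against a naive mean of 95.2 CPM. The SUSD2 difference was -0.79 without N2B27 replicate 2, short of the threshold. KLF17, a defining naive factor, stood at 15.5 and 18.5 CPM in mTeSR and 22 and 26.9 CPM in N2B27, and TFCP2L1 at 46.2 and 56.8 CPM in mTeSR and 76.9 and 68.1 CPM in N2B27 (-0.49, adjusted p = 0.012). The other naive markers were not called, among them DPPA3, at 229 and 240.4 CPM in mTeSR and 238 and 263 CPM in N2B27, and FGF4, at 75.5 and 88.7 CPM in mTeSR and 41.4 and 40.8 CPM in N2B27 (1.00, adjusted p = 1.4e-04).

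Genes of the 8-cell stage are switched on when the human embryonic genome activates, many of them downstream of DUX4, and a few cells of naive cultures are known to express them. The list was compiled after TPRX1, CCNA1 and several of its members had been seen among the called genes, so its counts are a description. Of 42 listed genes 33 passed the filter, 23 were called lower in mTeSR, none was called higher, and all 33 fitted differences were negative. The median was -1.71, or -1.67 with genes near the floor taken at their bound. Together the listed genes summed to 274 CPM in both mTeSR libraries and to 783 and 927 CPM in the N2B27 libraries. On earlier days 2 members were called lower at each of days 4 and 6, with medians of -0.68 and -0.49. DUXA, DUXB, LEUTX and TPRX2, defining genes of that stage, did not pass the filter.

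CCNA1, cyclin A1 (chr13:36431520-36442870, plus strand), was at 35.3 and 38.9 CPM in mTeSR and 136 and 161 CPM in N2B27, a difference of -2.01 (SE 0.14, adjusted p = 8.1e-12). TPRX1, a homeobox factor of the 8-cell embryo, was at 7.33 and 8.67 CPM in mTeSR and 34.8 and 38.3 CPM in N2B27 (-2.19), and ZSCAN4, a zinc finger protein of the same stage, at 2.44 and 2.24 CPM in mTeSR and 8.59 and 8.67 CPM in N2B27 (-1.87). H3.Y, a histone variant induced by DUX4, was at 42.1 and 32.2 CPM in mTeSR and 122 and 120.3 CPM in N2B27 (-1.71), and TRIM43 was at 13 and 9.79 CPM in mTeSR and 37.9 and 42.8 CPM in N2B27 (-1.82). Every mTeSR library lay below every N2B27 library for these genes, which the naming rule required of CCNA1 and TPRX1. TRIM43, TRIM49, MBD3L and PRAMEF genes are families of near-identical copies, and the division of reads among copies is uncertain. Against the floor, TRIM49D2, with no read in mTeSR, was at least 3.32-fold lower, and RFPL4B at least 4.05-fold lower. In E8 at day 8 CCNA1 stood at 129 ± 20.1 CPM and TPRX1 at 16.5 ± 1.63 CPM (mean ± SD, n = 2), and the differences of mTeSR from E8, over the same mTeSR libraries, were -1.80 and -1.04, both called. CCNA1 had differences of -0.94 at day 6 and -0.41 at day 4, not called, and its interaction was -1.60 (adjusted p = 1.8e-06). Naive cells had a mean of 15 CPM of CCNA1, below either medium at day 8.

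The other named genes lower in mTeSR had varied roles. PRTG, a receptor of the immunoglobulin superfamily expressed in early embryos, was at 6.79 and 5.04 CPM in mTeSR and 42.3 and 43.9 CPM in N2B27 (-2.86), and BST2, the interferon-induced tetherin, at 2.17 and 4.2 CPM in mTeSR and 19.8 and 20.6 CPM in N2B27 (-2.66). S100A14, a calcium-binding protein of epithelia, was at 6.79 and 6.16 CPM in mTeSR and 33.5 and 37.8 CPM in N2B27 (-2.46). DIO3, the deiodinase that inactivates thyroid hormone, was at 8.14 and 8.95 CPM in mTeSR and 36.1 and 34.9 CPM in N2B27 (-2.05), and LGALS1, galectin-1, at 7.87 and 6.44 CPM in mTeSR and 36.6 and 26.2 CPM in N2B27 (-2.12). BST2 was called on all 3 days, with -2.15 at day 6 and -1.69 at day 4. S100A14 and DIO3 had called interactions of -2.70 and -3.77. PCLAF, which binds the replication clamp PCNA, was at 9.23 and 5.6 CPM in mTeSR and 32.2 and 27.1 CPM in N2B27 (-1.99). NTS, the neuropeptide neurotensin, was named after its values were seen and was called lower on all 3 days, with -1.81 at day 8, -2.20 at day 6 and -2.94 at day 4.

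Of 17 tested epithelial and mesenchymal genes 5 were called lower, with a median of -0.58. CDH11, a mesenchymal cadherin, was at 17.4 and 19.9 CPM in mTeSR and 52.2 and 59.4 CPM in N2B27 (-1.58, adjusted p = 4.7e-06) and was called at each of the 3 days. SNAI1, SNAI2 and ZEB2, repressors of epithelial genes, were called, ZEB2 at 1.09 and 1.12 CPM in mTeSR and 8.59 and 6.5 CPM in N2B27, as was the epithelial claudin CLDN4, at 1.36 and 1.96 CPM in mTeSR and 3.52 and 6.32 CPM in N2B27. E-cadherin (CDH1) stood at 403 and 434 CPM in mTeSR and 379.6 and 399.6 CPM in N2B27. Of 23 tested matrix genes 2 were called lower, COL5A1 and COL5A2, chains of collagen V, with COL5A2 at 29.9 and 25.2 CPM in mTeSR and 62.1 and 49.5 CPM in N2B27. Fibronectin (FN1) was at 559.5 and 648 CPM in mTeSR and 1164 and 1024 CPM in N2B27 (-0.86, adjusted p = 0.0027). Fibroblast markers gave 2 calls of 7 tested, COL3A1, with 1 read in each mTeSR library and at least 3.92-fold lower against the floor, and PDGFRB, at 2.71 and 1.68 CPM in mTeSR and 7.93 and 7.59 CPM in N2B27. LUM, DCN and PRRX1 did not pass the filter. Most of these calls rested on single libraries. COL3A1 was not called once any 1 of the 4 libraries was left out (adjusted p up to 0.16), CLDN4 was lost without either mTeSR library or N2B27 replicate 2 (up to 0.40) and with the replicate number as a block (0.051), and SNAI1 without mTeSR replicate 1 or N2B27 replicate 1 (up to 0.11). PDGFRB was lost without mTeSR replicate 2 (0.13), COL5A2 without mTeSR replicate 2 or N2B27 replicate 1 (up to 0.081), and COL5A1 without those or mTeSR replicate 1 (up to 0.18). SNAI2 was lost without mTeSR replicate 1 (0.06), and CDH11 and ZEB2 were called whichever of the 4 libraries was left out.

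Of 22 amino acid stress genes controlled by ATF4, 3 were called lower, TRIB3, at 11.7 and 12.6 CPM in mTeSR and 35.5 and 44.3 CPM in N2B27 (-1.72), GDF15, at 155 and 203 CPM in mTeSR and 374 and 391 CPM in N2B27 (-1.10), and ALDH1L2, at 8.96 and 7.0 CPM in mTeSR and 16.7 and 18.2 CPM in N2B27 (-1.13), and the median was -0.12. The differences of GDF15 without mTeSR replicate 1, -0.91, and of ALDH1L2 without mTeSR replicate 2, -0.97, fell short of the threshold. The p53 list had 1 call of 15, GDF15 again, and a median of -0.08, where 3.8% of all tested genes were called in either direction. Of 8 metallothioneins 1 was called, MT3, at 8.69 and 13.7 CPM in mTeSR and 0.22 and 1.08 CPM in N2B27, and the median was -0.18, with uncertain read assignment among these similar genes.

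The media difference was also followed over days in separate libraries of mTeSR and N2B27. At day 6, 437 genes, or 2.62% of those tested, were called, and at day 4, 263 genes, or 1.58%. Without single libraries these counts were 221 (mTeSR replicate 2) and 256 (N2B27 replicate 2) at day 6, and 161 and 155 (mTeSR replicates 1 and 2) and 155 and 112 (N2B27 replicates 1 and 2) at day 4. Of the 275 genes called higher in mTeSR at day 8, 68 (24.7%) were also called higher at day 6, which is 33.3% of the 204 called higher on that day, and 41 (14.9%) at day 4, which is 30.4% of the 135 called higher there. Of the 359 genes called lower at day 8, 71 (19.8%) were called lower at day 6, or 30.5% of 233, and 24 (6.69%) at day 4, or 18.8% of 128. No gene called at day 8 was called in the opposite direction at day 6, and 4 of the higher and 2 of the lower genes were at day 4, among them SLC16A3. In all, 26 genes were called higher and 17 lower on all 3 days. THBS2, NEFM, ADAMTS19, LINC00458 and HPAT5 were among the genes higher throughout and BST2, NTS and CDH11 among those lower throughout.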

How the data were processed

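Raw counts per gene symbol for 38 libraries were deposited by the authors, who made them from 3′ tag reads (QuantSeq, single-end) with the nf-core rnaseq workflow, STAR 2.7.10a, Salmon 1.9.0 and tximport on hg38. The annotation release is not given in the sources used here. 3′ tags do not tell isoforms apart, and similar copies of a gene can exchange reads.

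Of 57133 genes, 16674 passed filterByExpr and held 99.65% of the counts. One model with the 19 groups of 2 libraries was fitted in R 4.3.3 with edgeR 4.0.16 (limma 3.58.1), using TMM scaling and quasi-likelihood F-tests with Benjamini-Hochberg adjustment over all tested genes of each comparison. All groups shared the estimate of the spread (common dispersion 0.01, a biological coefficient of variation of 10%, 19 residual degrees of freedom). The study's thresholds, an adjusted p under 0.05 and a log2 difference above 1, were kept. SEs were derived from the F statistic. The script was tested on simulated counts with 200 changed genes. DESeq2 1.42.0 was one of the alternatives, with other scalings and filters, the 4 libraries alone, the replicate number as a block and each library left out.

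The 12 named genes in each direction had the widest called differences among genes whose libraries did not overlap and whose higher medium averaged 20 CPM or more. Clone-named genes, Y-linked genes and XIST were left out. A few listed genes are not reported here. The comparison and the gene lists were chosen with earlier results of these data known, and the list of 8-cell stage genes, the hypoxia motif and the single genes so marked were chosen after their values were seen. CCN1, CCN2 and TPRX2 were matched through older symbols. Gene positions are from GENCODE release 44 (GRCh38), and upstream sequences are from RefSeq.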

Additional observations from a re-analysis of the deposited data

Results flagged for a closer look

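The difference between mTeSR and N2B27 was not the same on all days. The day 8 difference minus the day 4 difference, tested as an interaction with edgeR's quasi-likelihood test, was called for 281 of the tested genes, or 1.69%, and the values below are such log2 interactions of genes described above. Of the 19 tested hypoxia and glucose responsive genes, 10 had a called interaction and 9 did not, and the 10 were positive, so that their level in mTeSR relative to N2B27 was greater at day 8. With SLC16A3 and GBE1, which are not on that list, it was 3.63 for PFKFB4, 3.15 for SLC16A3, 2.33 for PDK1, 1.72 for BNIP3, 1.69 for LDHA, 1.58 for ALDOC, 1.496 for GBE1, 1.49 for P4HA1, 1.38 for NDRG1, 1.38 for BNIP3L, 1.32 for KDM3A and 1.14 for HK2. Other genes with a positive value were TMEM45A, at 2.57, IQSEC2, at 1.17, and TRIB2, at 1.12. It was negative for ANKRD1, at -4.46, for DIO3, at -3.77, for TNC, at -2.97, for S100A14, at -2.70, and for GATA3, at -2.51. The 8-cell stage genes CCNA1 and TPRX1 had values of -1.60 and -1.43. The libraries of the 2 days were separate samples of the same experiment, and what set the days apart was not tested.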

How the results depend on the processing

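Of 74 genes followed in up to 11 alternative settings, 49 kept their call in each setting counted, 25 lost it in at least 1 and 0 changed sign. For 8 of these genes DESeq2 gave no adjusted p, and that setting was not counted. Genes such as MT3 and ZEB2 are therefore among the 49 on 10 settings, without a call in DESeq2. The 634 day 8 calls became 639 with RLE scaling, 647 with plain library totals (38.18% higher in mTeSR, against 43.38%), 636 where 2 or more libraries had to exceed 10 counts, 673 without a filter and 780 in a fit of the 4 libraries alone. The replicate numbers were entered as a block because the labels repeat them. The deviations of same-numbered libraries had a correlation of 0.04 over genes. With 2 libraries per group this value cannot show whether same-numbered libraries shared a preparation. With the replicate block 633 genes were called, 271 higher and 362 lower, of which 624 were among the 634. DESeq2 called 418 genes at day 8, 180 higher and 238 lower, 290 at day 6 and 162 at day 4, and 94 of the day 8 calls had no adjusted p there. With a fit of the compared libraries alone, the comparison with E8 gave 450 calls. Leaving out 1 library gave 366 to 472 calls at day 8, 157 to 223 higher and 209 to 269 lower, 221 to 319 at day 6, 112 to 161 at day 4 and 431 to 1169 against E8. Each fit without 1 library left a group with a lone sample, assumed to vary like the other groups. Of 528 recomputed counts over gene lists, 37 moved by more than 1.5 times, among them YAP/TEAD targets (2 lower with DESeq2), epithelial and mesenchymal genes (2 lower), fibroblast markers (1 lower), metallothioneins (0 higher) and endoderm and hypoblast markers (1 lower), and the cause was not tested. Genes near 3 counts per library, 0.542 to 0.84 CPM, were limited by depth.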
